A study of Mus musculus with 18 samples.

Results

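Cortex taken 28 d after transient middle cerebral artery occlusion (tMCAO) was compared with cortex taken 24 h after it, across both viral arms of the study. The comparison holds 12 of the 18 libraries. They are R24h_C1 to R24h_C3 and R24h_T1 to R24h_T3 at 24 h, and R28d_C1 to R28d_C3 and R28d_T1 to R28d_T3 at 28 d, so that each time has 6 libraries, 3 of each arm. The arm entered the fit as a covariate, and the 14756 of 37319 genes with at least 1 FPKM in at least 3 of the 12 libraries were tested. The 6 sham libraries gave a reference level and entered no test. No time after surgery is listed for sham, so whether it matches the 24 h or the 28 d groups in age is unknown. All mice were male C57BL/6J, obtained at 8 to 10 weeks and 24 to 26 g. All 4 groups compared carry an adeno-associated virus (AAV) injected into the left lateral ventricle 4 weeks before surgery, and all 4 had tMCAO, a stroke model in which the main artery of lateral cortex is closed for a time and then reopened. The virus was AAV-SYN-shRNA-Con, a scramble hairpin, in the C groups (the control arm) and AAV-SYN-shRNA-TIPARP, a hairpin against Tiparp, in the T groups (the Tiparp arm). SYN stands for the synapsin promoter, which is active in neurons, while RNA was taken from the whole ipsilateral cortex. Whether each library is a separate mouse is not said in the labels, and p-values here refer to the spread from library to library. Time after tMCAO, age and time since the virus rise together between the groups and cannot be told apart.

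Within the first day of ischemia and reperfusion, injured cortex turns on heat shock, oxidative stress and unfolded protein programmes, its endothelium takes on an activated state, and glia and arriving leukocytes make chemokines. Over the following weeks the acute programme subsides while astrocytes form a scar and microglia and macrophages clear lipid-rich debris. Immediate early genes such as the Egr and Nr4a families are switched on by neuronal firing and are used as a readout of it.

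Several libraries stood apart from their group. R24h_T3 lay nearest to sham of the 24 h libraries, and R28d_C1 and R28d_T3 nearest to sham of the 28 d libraries. R28d_T1 had the highest levels of many glial and immune genes at 28 d. Ttr, a choroid plexus product, was at 1682 FPKM in R24h_C3 and at 712 FPKM in R28d_T2, against 0.892 to 81.9 FPKM in the other 10 libraries. Libraries of the same group correlated across genes with Pearson's r of 0.944 to 0.980. The share of FPKM on the mitochondrially encoded genes was 35.2% ± 3.89 at 24 h and 37.0% ± 3.55 at 28 d (SD, n = 6 each), a difference of 1.79 percentage points with p = 0.425 in an exact two-sided permutation test within arms. The 21 excitatory neuron and layer markers of cortex together made 485 FPKM in R24h_C3, 954 to 1621 FPKM in the other 24 h libraries and 1021 to 1438 FPKM at 28 d, against 1265 to 1485 FPKM in sham. R24h_C3 stood apart in other lists as well. Relative to the sham mean, the median of its excitatory markers was at -1.05 on the log2(FPKM + 1) scale and that of its synaptic genes at -0.78, with the striatal list at 0.76, the myelin list at 0.89 and the choroid plexus list at 2.14.

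At a limma adjusted p under 0.05, 217 genes were higher at 28 d (1.47% of those tested) and 222 were lower (1.50%), together 439 (2.98%). All differences below are 28 d minus 24 h on the log2(FPKM + 1) scale, which makes the change of a low gene smaller than its ratio. Wide differences were mostly falls: 85 of the lower genes (0.576%) and 20 of the higher genes (0.136%) differed by at least 1. The 6 values of one time lay apart from the 6 of the other in 143 of the higher and 85 of the lower genes that passed (0.969% and 0.576%). Without regard to the test, they lay apart in 212 genes upward (1.44%) and 182 downward (1.23%), together 394 (2.67%). The median of all tested genes was -0.06, and 60.7% of them were lower in direction. After median-ratio scaling of the libraries the median was 0.0005 and 49.9% were lower in direction. Before adjustment, 1330 genes were higher (9.01%) and 2467 lower (16.7%) at p under 0.05, and after scaling these were 1916 and 1904, so that this split depends on the scaling. The numbers that passed depended on single libraries, as the plot of left-out libraries shows. Without R24h_T3, 701 genes were higher (4.75%) and 1928 lower (13.1%), and all 439 genes were among them. Without R28d_C2 or R28d_C3 1 gene passed in each direction, and without both libraries high in Ttr no gene passed with limma, although 3013 still had an unadjusted p under 0.05. Each of the 439 genes kept its sign in each of the 12 fits that left out 1 library, while 1 of them, Ikbkg, passed in all 12. The genes were chosen by the fit of the same libraries, so their kept signs are no separate support.

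**Figure D1:**
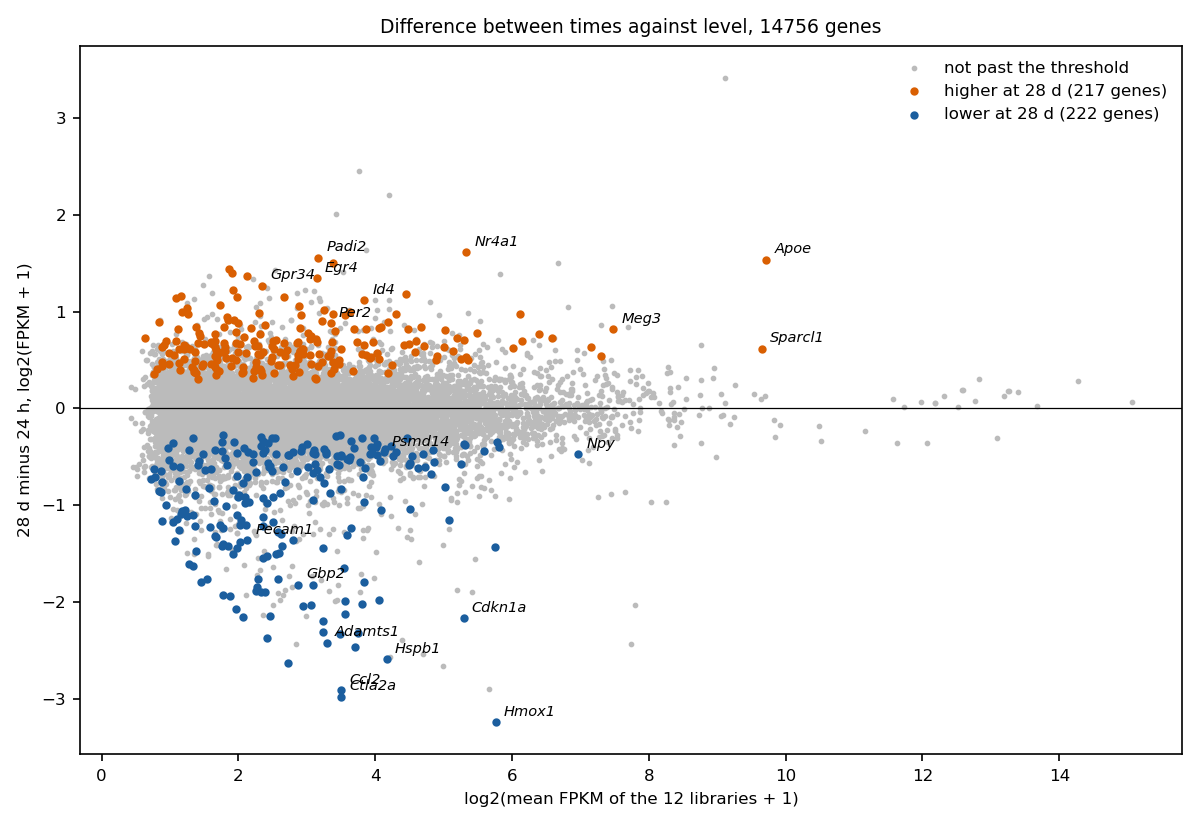
Each point is 1 of 14756 genes: the horizontal axis is log2 of the mean FPKM of the 12 libraries plus 1, and the vertical axis is the difference of 28 d minus 24 h on the log2(FPKM + 1) scale. The 222 genes lower at 28 d (blue) reach -3.24 for Hmox1, and the 217 genes higher (orange) reach 1.62 for Nr4a1.

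**Figure D2:**
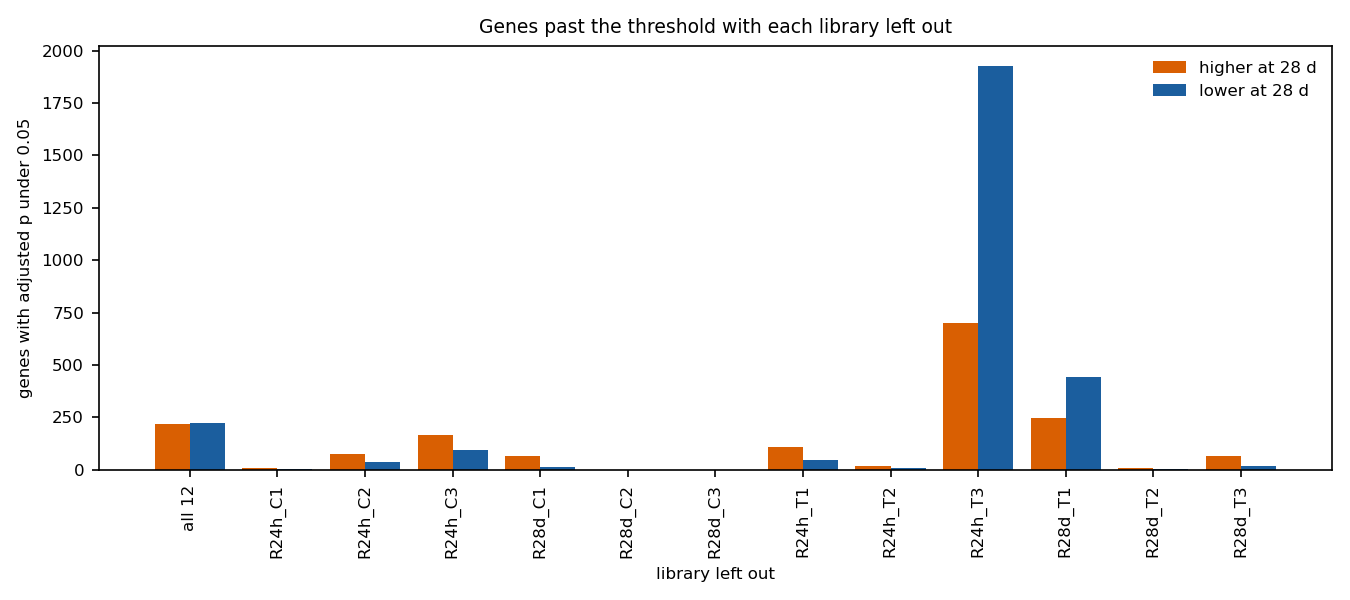
Bars give the number of genes with a limma adjusted p under 0.05 that were higher (orange) or lower (blue) at 28 d, with all 12 libraries and with each library left out in turn. Leaving out R24h_T3 gives 701 and 1928 genes, and leaving out R28d_C2 or R28d_C3 gives 1 and 1.

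Set beside sham, most of the genes that passed were away from sham at 24 h and close to it at 28 d. Of the 217 higher genes, 195 had a 24 h median below the range of the 6 sham libraries, and 141 had a 28 d median inside that range, with 72 above it and 4 below. Of the 222 lower genes, 214 had a 24 h median above the sham range. Their 28 d median was inside that range for 141, above it for 65 and below it for 16. The lower genes lay 0.75 to 1.11 above the sham mean (median over genes) in 5 of the 24 h libraries and 0.25 above it in R24h_T3. At 28 d they lay between -0.04 and 0.16. The difference between the same 24 h and 28 d values chose these genes, so being away from sham at 24 h or 28 d is partly built in. Shares over all tested genes are not given for these positions, which are a description only.

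The largest fall was that of an oxidative stress gene. Hmox1, which encodes the heme-degrading enzyme heme oxygenase 1, ran from 18.6 FPKM through a median of 103 to 180.0 FPKM at 24 h, and from 3.13 through 5.88 to 16.1 FPKM at 28 d. No 28 d library reached the lowest 24 h library, and sham was at 2.33 to 3.94 FPKM. The difference was -3.24 (SE 0.62, limma adjusted p = 0.0294), and it stayed between -3.60 and -2.88 with any 1 library left out, passing in 5 of the 12 fits. Srxn1, a sulfiredoxin that reactivates oxidized peroxiredoxins, was at 30.0 to 131 FPKM at 24 h (median 76.4) and at 22.8 to 27.5 FPKM at 28 d (median 26.2). Its difference was -1.43 (SE 0.29, adjusted p = 0.0332), and no sham library lay above 27.4 FPKM. Glutathione reductase, Gsr, fell as well (-0.77, adjusted p = 0.0322). Of 22 NRF2 targets and metallothioneins these 3 fell, against a background of 1.50%, and the glutathione transferase Gstm1 rose (0.64, adjusted p = 0.0422). Without R24h_T3, 12 passed as lower, and without any other single library 3 or fewer did. The list's median was -0.39, against -0.06 for all genes.

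Hspb1, the small heat shock protein HSP27, ran from 2.74 through 31.5 to 58.5 FPKM at 24 h and from 1.18 through 2.64 to 7.84 FPKM at 28 d. R24h_T3 held the lowest 24 h value and overlapped with 28 d. Sham was at 0.412 to 1.14 FPKM. The difference was -2.59 (SE 0.60, adjusted p = 0.0434). It was the only called member of 25 heat shock and chaperone genes (background 1.50%). Of the 25, 24 were lower in direction (background 60.7%) and 16 of these had an unadjusted p under 0.05 (background 16.7%). The list's median was -0.58. Hspa1a and Hspa1b, near-identical HSP70 genes between which reads can be split, had the largest differences of the list but varied widely at 24 h. Hspa1a was at 209 FPKM in R24h_T2, at 3.91 to 53.9 FPKM in the other 24 h libraries and at 2.99 to 4.09 FPKM at 28 d (-2.66, adjusted p = 0.0696). Hspa1b differed by -2.90 (adjusted p = 0.0681). Both were picked after their values were seen.

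The promoters of Hspb1 and Srxn1 are printed because they hold the short motifs of the factors that are known to drive these programmes. A heat shock element, searched on both strands as GAANNTTC, was present in 12 of 26 promoters of the heat shock list (46.2%) and in 7.86% of all 32851 promoters of the same length in RefSeq. An antioxidant response element, searched on both strands as TGACNNNGC, was present in 7 of 23 promoters of the NRF2 list (30.4%) and in 12.4% of all promoters. Its share was as high in promoters of the immediate early list (13 of 42, 31%) and of the unfolded protein list (8 of 26, 30.8%). The other motif searched for the NRF2 list, a metal response element (TGCNCNC, both strands), was present in 13 of its 23 promoters (56.5%) and in 51% of all. Both sequences run from 250 bases before to 50 bases after the start site (RefSeq, GRCm38.p6). Capitals mark the matches, which are a description of the letters and not evidence of binding. In Hspb1 (chr5:135887669-135887968, plus strand) they begin 117 and 97 bases before the start. In Srxn1 (chr2:152105274-152105573, plus strand) the match begins at base 29 after the start, on the opposite strand to the gene. The searched TGACNNNGC allows only C after TGA, so elements with another letter there are unmarked.
Hspb1: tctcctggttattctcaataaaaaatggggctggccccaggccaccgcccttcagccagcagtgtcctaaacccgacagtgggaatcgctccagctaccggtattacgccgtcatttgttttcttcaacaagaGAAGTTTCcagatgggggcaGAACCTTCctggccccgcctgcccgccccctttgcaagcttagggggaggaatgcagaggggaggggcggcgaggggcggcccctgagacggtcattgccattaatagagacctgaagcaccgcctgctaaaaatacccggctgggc
Srxn1: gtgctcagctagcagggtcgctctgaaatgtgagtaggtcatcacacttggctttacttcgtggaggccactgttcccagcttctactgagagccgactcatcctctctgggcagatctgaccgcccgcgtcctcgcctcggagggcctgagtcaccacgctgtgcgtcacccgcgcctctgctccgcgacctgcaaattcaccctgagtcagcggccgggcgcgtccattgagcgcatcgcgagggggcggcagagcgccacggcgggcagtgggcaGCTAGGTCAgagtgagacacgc

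Proteasome subunits were lower by small amounts. The proteasome degrades ubiquitin-tagged proteins, and all 31 of its measured subunits were lower in direction at 28 d (background 60.7%), each with an unadjusted p under 0.05 (background 16.7%), with a median of -0.42. After scaling, 31 were lower in direction and 30 had an unadjusted p under 0.05, against 12.9% of all genes. After adjustment, 4 of the 31 passed (background 1.50%): Psmd6 (-0.49), Psmb4 (-0.47), Psmb7 (-0.45) and Psmd14 (-0.45), with adjusted p from 0.035 to 0.0482. Psmd14, the deubiquitinase of the proteasome lid, was at 13.6 to 23.3 FPKM at 24 h (median 19.7) and at 12.7 to 14.3 FPKM at 28 d (median 13.9), with sham at 11.7 to 13.8 FPKM. R24h_T3 lay at the 28 d level, and the other 24 h libraries lay above all 28 d libraries. Without R24h_T3, 30 of the 31 subunits passed, without R28d_T1 8 did, and without any of the other 10 libraries none did. The summed level of the 31 genes was 730.5 to 1185 FPKM at 24 h, 739 to 798 FPKM at 28 d and 711 to 791 FPKM in sham.

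Among 26 unfolded protein and integrated stress response genes, 25 were lower in direction (background 60.7%), 19 at an unadjusted p under 0.05 (background 16.7%). Of the 26, Manf, a secreted factor of the endoplasmic reticulum, passed (-0.57, adjusted p = 0.0462, background 1.50%). Ribosome biogenesis genes were lower in direction in 30 of 30 and in 16 at an unadjusted p, with a median of -0.29 and none past adjustment. Without R24h_T3, 15 of the 26 and 16 of the 30 passed as lower. The 41 cytosolic ribosomal protein genes were all lower in direction with a median of -0.23, and none passed. An unadjusted p under 0.05 was found for 7 of them, a share near the background of 16.7%. After scaling their median was -0.16, with 36 lower in direction and 5 at an unadjusted p under 0.05, where 12.9% of all genes were. Before scaling, their median was -0.51 in the control arm and 0.02 in the Tiparp arm.

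Among genes of cell injury and cell cycle arrest, Cdkn1a, the p21 inhibitor of cyclin-dependent kinases, ran from 5.95 through 64.1 to 122 FPKM at 24 h and from 7.19 through 9.08 to 16.0 FPKM at 28 d (-2.17, SE 0.52, adjusted p = 0.048). R24h_T3 was at 5.95 FPKM and the other 24 h libraries were at 50.8 FPKM or more, so 1 library alone made the times overlap. Tnfrsf12a, the receptor of the cytokine TWEAK, was at 3.49 to 55.9 FPKM at 24 h and at 1.55 to 2.88 FPKM at 28 d (-2.47, adjusted p = 0.0255). These were the 2 members of 22 p53 and apoptosis genes that passed (background 1.50%). Of the 22, 21 were lower in direction (background 60.7%) with a median of -0.46. Without R24h_T3, 11 passed. Of 14 tested proliferation and mitosis genes none passed. Ccnd1, cyclin D1, was at -0.85 (adjusted p = 0.0583).

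Of 25 cytokines and chemokines 6 fell and none rose, against backgrounds of 1.50% and 1.47%, and the median was -1.22, against -0.06 for all genes. Ccl2, the chemokine that draws monocytes, ran from 1.06 through 16.6 to 49.5 FPKM at 24 h and from 0.0736 through 0.863 to 3.81 FPKM at 28 d, with sham at 0.0531 to 0.209 FPKM. R24h_T3 was the lowest library at 24 h and R28d_T1 the highest at 28 d, and these overlapped. The difference was -2.91 (SE 0.64, adjusted p = 0.0379). The cytokine Il11 (-2.37, adjusted p = 0.0401), the monocyte chemokine Ccl12 (-2.03, adjusted p = 0.0254) and the granulocyte factor Csf3 (-1.76, adjusted p = 0.0453) fell with it. Csf3 was listed at 0 in at least 1 library of each time. Il6 and Tnf completed the 6, with differences of -1.37 and -1.17. The count depended on single libraries: 18 of the 25 passed as lower without R24h_T3, 9 without R28d_T1, 1 without R24h_C2, R24h_C3 or R24h_T1, and none without any of the other 7.

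Markers of monocytes and macrophages gave 2 calls, and those of neutrophils gave none. In whole cortex, fewer cells of a type and less RNA per cell cannot be told apart, here and for each cell type below. Of 12 tested monocyte and macrophage markers, the scavenger receptor Msr1 (-2.16, adjusted p = 0.0259) and arginase, Arg1 (-1.63, adjusted p = 0.0368), fell (background 1.50%). Of the 12, 11 were lower in direction (background 60.7%), 8 at an unadjusted p under 0.05 (background 16.7%), with a median of -0.91. Without R24h_T3 8 passed as lower, without R28d_T1 4, and without any other single library 2 or fewer. Msr1 was at 0.786 to 11.1 FPKM at 24 h, at 0.0616 to 0.941 FPKM at 28 d and at 0.0187 to 0.0434 FPKM in sham. Yet the summed level of the 16 markers was 28.9 to 231 FPKM at 24 h and 11.5 to 627 FPKM at 28 d, with the highest value in R28d_T1, against 8.50 to 11.7 FPKM in sham. C5ar1, the receptor for the complement fragment C5a, was the only called gene of 17 complement genes (-1.85, adjusted p = 0.0322, background 1.50%). The complement list's median was -0.11, against -0.06 for all genes, with 10 members lower and 7 higher in direction. Of 8 tested neutrophil markers none passed. S100a9, a neutrophil calcium-binding protein, was at 2.93 to 117 FPKM at 24 h and at 0 to 10.1 FPKM at 28 d (-2.57, adjusted p = 0.0839).

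Of 22 tested endothelial markers 9 fell and none rose, against a background of 1.50% lower, with a median of -1.07. In direction 18 were lower (background 60.7%) and 4 were higher. Without R24h_T3 16 passed and without R28d_T1 12, all lower, and without any of the other 10 libraries none did. Selp, P-selectin, which captures leukocytes on activated endothelium, ran from 0.0582 through 3.15 to 6.77 FPKM at 24 h and from 0 through 0.0247 to 0.208 FPKM at 28 d, with sham at 0 to 0.0396 FPKM. R24h_T3 had the lowest 24 h value and R28d_T1 the highest 28 d value, and these 2 libraries overlapped. The difference was -1.79 (SE 0.39, adjusted p = 0.0379). Ly6a, known as Sca-1, fell by 1.98 (adjusted p = 0.0378), the junctional cadherin Cdh5 by 1.50 (adjusted p = 0.0444) and Pecam1, or CD31, by 1.36 (adjusted p = 0.0453). Pecam1 was at 1.43 to 9.73 FPKM at 24 h and 0.605 to 2.06 FPKM at 28 d, and the lowest sham library was at 0.587 FPKM. The VEGF receptor Flt1 (-0.82, adjusted p = 0.0345) and the TGF-beta co-receptor Eng (-1.30, adjusted p = 0.0322), picked after their values were seen, were among the 9, with Esam, Sele and Angpt2.

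The 25 endothelial markers summed to 56.8 to 213 FPKM at 24 h, 40.6 to 77.1 FPKM at 28 d and 39.5 to 48.8 FPKM in sham. Of 12 tested pericyte and smooth muscle markers none passed. Some genes with known roles in vessels belong to other lists or to none, and they are given singly. Adamts1 of the matrix list, a secreted protease that inhibits angiogenesis, was at 3.87 to 29.2 FPKM at 24 h and at 1.07 to 3.27 FPKM at 28 d (-2.42, adjusted p = 0.0189). Edn1, the vasoconstrictor endothelin 1, which is in no list, differed by -1.47 (adjusted p = 0.0334) and Adm of the hypoxia list, the vasodilator adrenomedullin, by -1.33 (adjusted p = 0.0216). Ctla2a, a protease inhibitor-like gene that is in no list, had the second largest fall of all genes tested, -2.98 (adjusted p = 0.0195), with 2.30 to 39.0 FPKM at 24 h and 0.494 to 1.72 FPKM at 28 d.

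Of 24 tested interferon response genes 4 fell (background 1.50%), with a list median of -0.54. All 24 were lower in direction (background 60.7%), 18 at an unadjusted p under 0.05 (background 16.7%). Without R24h_T3 14 passed, without R28d_T1 7, without R24h_C3 2, without R24h_T1 1, and without any of the other 8 libraries none. Gbp2, an interferon-induced GTPase, ran from 5.65 through 11.6 to 13.5 FPKM at 24 h and from 0.606 through 2.03 to 6.21 FPKM at 28 d, with sham at 0.195 to 0.624 FPKM (-1.82, SE 0.36, adjusted p = 0.0321). Isg15, a ubiquitin-like modifier, was at 2.37 to 7.71 FPKM at 24 h and at 0.840 to 2.69 FPKM at 28 d (-1.20, adjusted p = 0.0398). In both genes the highest 28 d value lay above the lowest 24 h value. Gbp3 (-1.20, adjusted p = 0.0321) and the signal transducer Stat2 (-0.61, adjusted p = 0.0481) were the others.

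The promoters of Gbp2 and Isg15 are shown because the list's best-known element is an interferon-stimulated response element, searched here on both strands by its core, GAAA, any 2 bases and GAAA. It was present in 12 of 24 promoters of the list (50%) and in 3.44% of all 32851 RefSeq promoters. Capitals mark the matches. Gbp2 (GRCm38.p6, chr3:142620413-142620712, plus strand) holds 1, beginning 59 bases before the start, on the opposite strand to the gene. Isg15 (chr4:156200769-156201068, minus strand) holds 3 that overlap each other, beginning 78, 72 and 66 bases before the start.
Gbp2: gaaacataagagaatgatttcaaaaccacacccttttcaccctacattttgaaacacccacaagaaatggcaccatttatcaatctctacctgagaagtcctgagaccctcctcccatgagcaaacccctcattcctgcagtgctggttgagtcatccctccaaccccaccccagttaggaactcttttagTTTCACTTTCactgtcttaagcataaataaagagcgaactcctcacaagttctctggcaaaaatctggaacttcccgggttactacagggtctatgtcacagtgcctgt
Isg15: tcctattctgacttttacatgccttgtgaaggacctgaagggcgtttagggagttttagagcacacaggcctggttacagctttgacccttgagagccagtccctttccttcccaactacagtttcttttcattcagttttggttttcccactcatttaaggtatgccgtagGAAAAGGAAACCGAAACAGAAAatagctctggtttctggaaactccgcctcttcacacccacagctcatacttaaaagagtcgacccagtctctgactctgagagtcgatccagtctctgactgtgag

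Reactive astrocyte genes were lower in direction in 32 of 33 tested members (background 60.7%), with a median of -1.22, and 6 passed (background 1.50%): Hspb1, Gbp2, Slc10a6 (-1.61, adjusted p = 0.0259), the GTPase gene Iigp1 (-1.32, adjusted p = 0.0368), Stat3 (-1.31) and S100a10 (-1.05, adjusted p = 0.0424). Hspb1 and Gbp2 are also members of the heat shock and interferon lists. Without R24h_T3 21 passed, without R28d_T1 12, and without any other single library 3 or fewer. Gfap, the intermediate filament by which reactive astrocytes are defined, did not follow them. It was at 150.1 to 414 FPKM at 24 h, at 37.8 to 886 FPKM at 28 d and at 27.5 to 49.5 FPKM in sham (-0.38, adjusted p = 0.744). Among the 28 d libraries, R28d_C1 held 37.8 FPKM, R28d_T3 held 96.8 FPKM and the other 4 held 165 to 886 FPKM. Its difference was -1.44 in the control arm and 0.68 in the Tiparp arm, and 0.15 without R28d_C1.

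Of 36 immediate early and activity-induced genes, 4 fell (background 1.50%). Fosl1, the AP-1 subunit Fra-1, was at 2.23 to 26.5 FPKM at 24 h (median 11.0) and at 1.90 to 2.30 FPKM at 28 d (-1.83, adjusted p = 0.0378). Its gene model overlaps Ccdc85b, which reached 43.2 FPKM, on the opposite strand, and whether the authors' counts use strand is not stated in the sources used here. The transcription factor genes Maff (-1.76, adjusted p = 0.043) and Klf6 (-0.97, adjusted p = 0.0277) and the stress-induced gene Ier3 (-1.65, adjusted p = 0.035) were the others. In no list, Hbegf, a ligand of the EGF receptor, differed by -1.44 (adjusted p = 0.0321), and the chromatin protein gene Hmga1 by -1.15 (adjusted p = 0.0321).

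Of the same 36 genes, 6 moved the other way, so that the list split into 6 higher (background 1.47%) and 4 lower. With 1 library left out, 0 to 9 passed as higher and 0 to 11 as lower, with 9 higher without R28d_T1 and 11 lower without R24h_T3. The 6 were Nr4a1, Nr4a3, Egr1, Egr2, Egr3 and Egr4, and the 24 h median of each lay below the sham range. Nr4a1, an orphan nuclear receptor induced by synaptic activity, was at 15.7 to 20.1 FPKM at 24 h (median 17.6) and at 28.9 to 85.4 FPKM at 28 d (median 64.9), with sham at 63.5 to 85.7 FPKM. All 6 of the 24 h libraries, R24h_T3 among them, lay below every 28 d library. The difference was 1.62 (SE 0.22, adjusted p = 0.0162), the largest rise among the genes that passed, and it ranged from 1.52 to 1.80 with any 1 library left out, passing in 11 of 12 fits.

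Egr4 was at 2.35 to 5.12 FPKM at 24 h, at 5.17 to 16.3 FPKM at 28 d and at 13.1 to 19.8 FPKM in sham (1.35, SE 0.24, adjusted p = 0.0254). Egr1, at 26.9 to 72.6 FPKM at 24 h and 57.4 to 116 FPKM at 28 d, rose by 0.98 (adjusted p = 0.0322), Egr2 by 1.44 (adjusted p = 0.0322) and Egr3 by 1.18 (adjusted p = 0.0336). The last 3 were picked after their values were seen. All 4 Egr genes encode zinc finger transcription factors. The lowest 28 d library for Nr4a1 and Egr4 was R28d_T1.

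**Figure D3:**
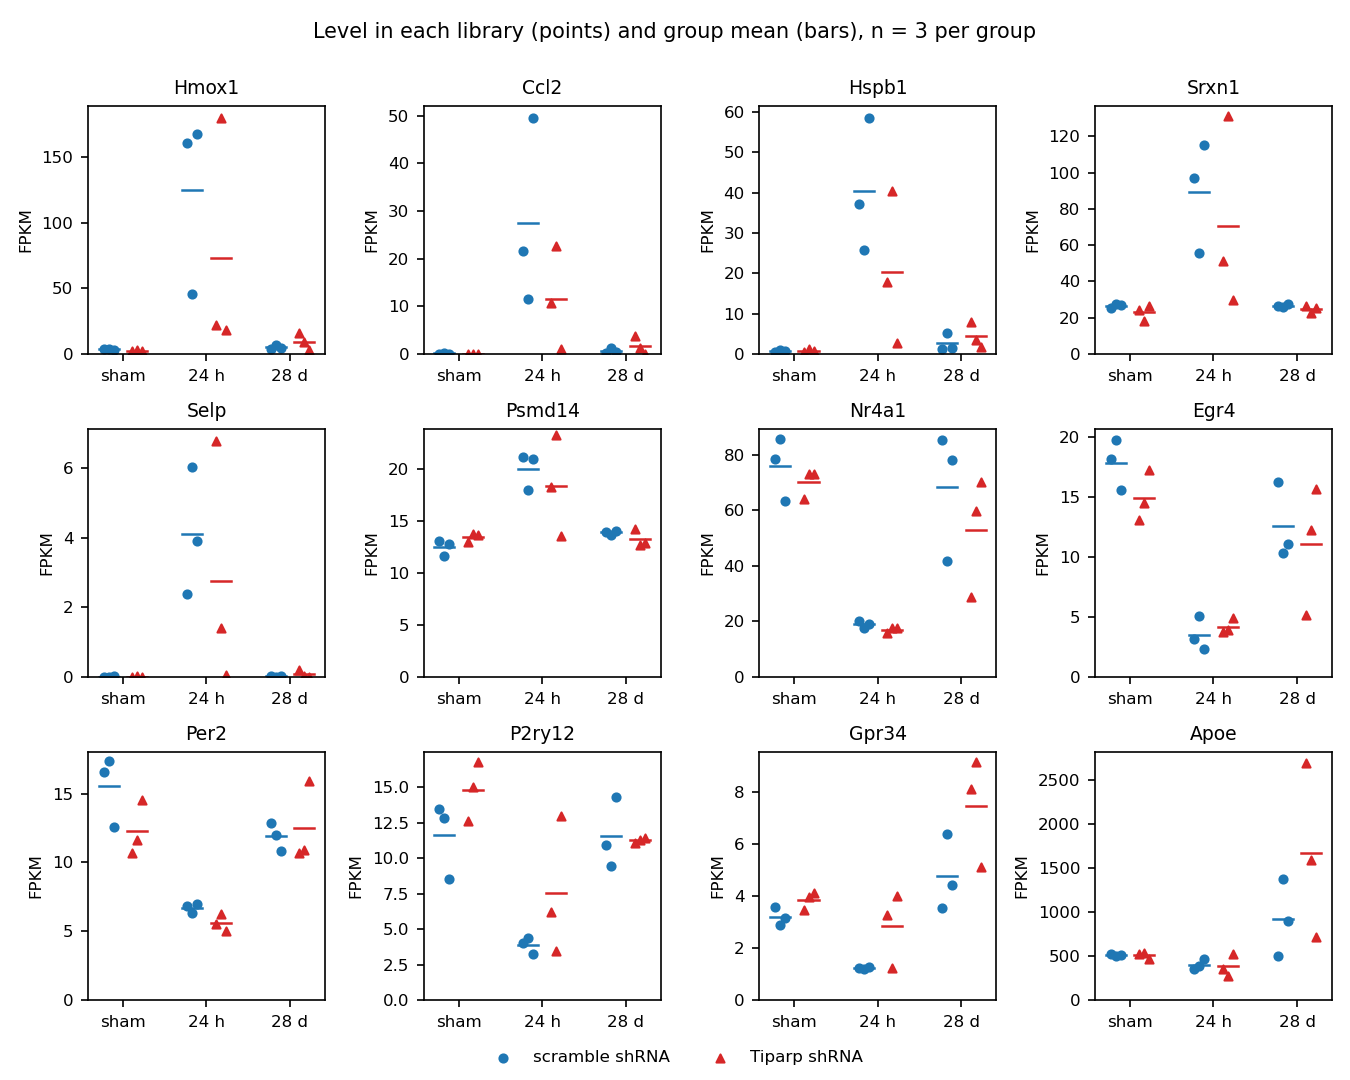
FPKM (vertical axis, from 0) of 12 genes in sham, 24 h and 28 d cortex. Points are libraries, circles for scramble shRNA and triangles for Tiparp shRNA, and bars are means of 3. Nr4a1 was at 15.7 to 20.1 FPKM in all 6 of the 24 h libraries and at 28.9 FPKM or more in all 6 of the 28 d libraries, while Hspb1, Selp and Psmd14 each have 1 low library at 24 h.

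Of 14 homeostatic microglia genes 5 rose and none fell, with a median of 0.56 and a background of 1.47% higher. Without R24h_T3 7 passed and without R28d_T1 5, without any other single library 3 or fewer, and none without R24h_C1, R28d_C2, R28d_C3 or R28d_T2. Gpr34, a lysophosphatidylserine receptor of microglia, ran from 1.21 through 1.26 to 3.98 FPKM at 24 h and from 3.52 through 5.76 to 9.13 FPKM at 28 d, with sham at 2.89 to 4.12 FPKM (1.27, SE 0.20, adjusted p = 0.0191). R24h_T3 held the highest 24 h value and was the library that overlapped 28 d. P2ry12, the ADP receptor that steers microglial processes, had a lowest value of 3.23 FPKM and a median of 4.19 FPKM at 24 h, when R24h_T3 alone lay within the range of 28 d, 9.47 to 14.3 FPKM (median 11.2). Sham was at 8.52 to 16.8 FPKM, and the difference was 1.02 (adjusted p = 0.0444). Selplg, a selectin ligand, rose by 0.98 (adjusted p = 0.0266) without overlap of the times, the lectin Siglech by 0.78 (adjusted p = 0.0322) and the fructose transporter Slc2a5, picked after its values were seen, by 0.64 (adjusted p = 0.0339).

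Genes of the disease-associated microglial state varied widely between libraries. Of 24 tested, 1 passed (background 1.47% higher): Apoe, a lipid carrier made by astrocytes and by lipid-laden microglia. Apoe ran from 273 through 368 to 526 FPKM at 24 h and from 496 through 1134 to 2690 FPKM at 28 d, with sham at 461 to 537 FPKM. The 24 h median lay below the sham range and the 28 d median above it, and the times overlapped between R24h_T3 and R28d_C1. The difference was 1.54 (SE 0.34, adjusted p = 0.0398). For the other 23 genes no difference passed, and the list's median was -0.22, with -0.79 in the control arm and 0.52 in the Tiparp arm.

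Among genes picked after their values were seen, Cst7, a cystatin of activated microglia, was at 0.507 to 3.56 FPKM at 24 h. The 28 d values were 37.3, 33.1 and 22.3 FPKM in R28d_T1, R28d_T2 and R28d_C2, 6.63 and 4.16 FPKM in R28d_T3 and R28d_C3, and 0.870 FPKM in R28d_C1 (2.01, adjusted p = 0.0897). C3, the central complement component, was at 0.524 to 4.57 FPKM at 24 h. It reached 123, 32.3, 27.0 and 14.7 FPKM in R28d_T1, R28d_T2, R28d_C2 and R28d_C3, and stood at 0.611 and 0.121 FPKM in R28d_T3 and R28d_C1 (2.21, adjusted p = 0.199). Gpnmb followed the same order of high and low libraries at 28 d (1.41, adjusted p = 0.279). Spp1, osteopontin, went the other way, with 11.5 to 703 FPKM at 24 h and 4.97 to 260.1 FPKM at 28 d (-2.43, adjusted p = 0.18). R28d_C1 and R28d_T3 held the 2 lowest 28 d values of C3, Gpnmb and Spp1, and R28d_C1 and R28d_C3 those of Cst7.

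Of 22 lymphocyte genes 4 were high enough to be tested, and none passed. Ighm, the heavy chain of immunoglobulin M, was at 3.15 to 21.5 FPKM at 24 h and at 11.7 to 48.5 FPKM at 28 d (1.12, adjusted p = 0.121). Igkc, the kappa light chain, picked after its values were seen, was at 1085 FPKM in R28d_T1 and at 0.531 to 27.8 FPKM in the other 28 d libraries, with 0.791 to 17.7 FPKM at 24 h (1.50, adjusted p = 0.494). Of 20 tested MHC and antigen presentation genes none passed, with a median of -0.18.

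Of the clock genes, Per2, a repressor in the circadian loop, stood at 5.05 to 7.01 FPKM at 24 h (median 6.29) and at 10.7 to 15.9 FPKM at 28 d (median 11.5), with sham at 10.7 to 17.4 FPKM. The times did not overlap, and R24h_T3 was among the low libraries. The difference was 0.88 (SE 0.11, adjusted p = 0.0162), between 0.78 and 0.92 with any 1 library left out, and it passed in 11 of 12 fits. Dbp, a clock-controlled transcription factor, was at 8.95 to 16.8 FPKM at 24 h and at 18.8 to 29.8 FPKM at 28 d (0.98, SE 0.17, adjusted p = 0.0216). Its model overlaps Sphk2 on the opposite strand. Nfil3, a repressor that acts against Dbp at the same sites, fell (-0.93, adjusted p = 0.0453). Of 22 clock genes these 3 passed, 2 higher (background 1.47%) and 1 lower (background 1.50%), and the list's median was 0.04. The labels do not give the hour of day at which tissue was taken, so its part in these 3 genes was not tested.

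Cholesterol synthesis and uptake genes were lower in direction in 23 of 23 members (background 60.7%), 14 at an unadjusted p under 0.05 (background 16.7%), with a median of -0.45. After scaling, 21 of 23 were lower in direction (background 49.9%). Of the 23, 3 passed as lower (background 1.50%). Among them were the sterol carrier Stard4 (-0.77, adjusted p = 0.0351) and Hsd17b7 (-0.66, adjusted p = 0.0259), an enzyme of sterol synthesis. Without R24h_T3 11 passed, and without any other single library 3 or fewer did. None passed without R24h_C1, R24h_T2, R28d_C2, R28d_C3 or R28d_T2. The summed level of the 24 genes was 222 to 385 FPKM at 24 h, 169.6 to 259 FPKM at 28 d and 234 to 294 FPKM in sham.

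Among genes of astrocytes and oligodendrocyte precursors a few rose. Ntsr2, a neurotensin receptor of astrocytes, was the only called gene of 20 homeostatic astrocyte genes (background 1.47% higher). It was at 11.4 to 20.7 FPKM at 24 h and at 23.1 to 39.6 FPKM at 28 d, without overlap (0.84, adjusted p = 0.0322). Of 16 oligodendrocyte precursor markers, C1ql1 (0.91, adjusted p = 0.0321) and the sialidase Neu4 (0.63, adjusted p = 0.0481) rose (background 1.47%). Both did so without overlap (background 1.44%), while 9 of the 16 were higher and 7 lower in direction. The proteoglycan Bcan, brevican, was at 22.6 to 38.0 FPKM at 24 h, at 39.7 to 46.8 FPKM at 28 d and at 39.9 to 44.2 FPKM in sham (0.73, SE 0.12, adjusted p = 0.0191). Sparcl1, an astrocyte matricellular protein that promotes synapse formation, was at 563 to 814 FPKM at 24 h and at 853 to 1044 FPKM at 28 d (0.62, SE 0.10, adjusted p = 0.0195).

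Of 33 extracellular matrix and scar genes, Bcan and the fibrillar collagen Col5a1 (1.15, adjusted p = 0.0295) rose (background 1.47%). Col5a1 was at 1.72 to 5.60 FPKM at 24 h, at 4.44 to 9.38 FPKM at 28 d and at 5.53 to 8.10 FPKM in sham. Its median was 2.63 FPKM at 24 h, 8.18 FPKM at 28 d and 6.84 FPKM in sham. Adamts1 and the basement membrane collagen Col4a1 (-0.83, adjusted p = 0.0444) fell (background 1.50%). Col4a1 overlaps Col4a2 on the opposite strand. Col11a2, another collagen, rose without overlap of the times (1.15, SE 0.16, adjusted p = 0.0162) and passed in 10 of 12 fits. Padi2, a peptidylarginine deiminase, was at 2.57 to 4.17 FPKM at 24 h and at 5.69 to 23.4 FPKM at 28 d, with sham at 4.48 to 7.09 FPKM (1.56, adjusted p = 0.0255). Id4, an inhibitor of helix-loop-helix factors, rose by 1.12 (adjusted p = 0.02). Of 24 oligodendrocyte and myelin genes none passed. Of 17 meningeal fibroblast genes, Aldh1a2 (-2.02, adjusted p = 0.0427), which makes retinoic acid, and Crabp2 (-0.91, adjusted p = 0.0499), which binds it, fell (background 1.50%).

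Neuronal genes had few calls. None of 40 synaptic genes passed, while 30 were higher in direction (background 39.3%), and the median was 0.16, with 0.41 in the control arm and -0.04 in the Tiparp arm. Without R24h_C3, a choice made after seeing the data, the control arm's median was 0.15, and that of the excitatory markers was 0.20 in place of 0.50. The postsynaptic scaffold Shank1 was nearest, at 15.1 to 43.4 FPKM at 24 h and 34.5 to 50.8 FPKM at 28 d (0.76, adjusted p = 0.0518). None of 19 pan-neuronal, 20 excitatory, 15 striatal or 30 voltage-gated channel genes passed. The striatal markers summed to 532 FPKM in R24h_C3, to 121 to 184 FPKM in the other 24 h libraries and 79.3 to 266 FPKM at 28 d, against 198 to 449.6 FPKM in sham. Of 22 interneuron and neuropeptide genes, Npy, neuropeptide Y, fell (background 1.50%). It was at 121 to 198 FPKM at 24 h (median 139.7), at 92.1 to 116 FPKM at 28 d (median 102) and at 119 to 159.6 FPKM in sham, so that all 28 d libraries lay below sham and 24 h (-0.47, SE 0.11, adjusted p = 0.0432). Grp, gastrin-releasing peptide, rose from 0.677 to 2.39 FPKM at 24 h to 3.17 to 7.53 FPKM at 28 d (1.37, adjusted p = 0.0216). The noncoding RNA Meg3, at 94.6 to 181 FPKM at 24 h and 179.8 to 266 FPKM at 28 d, rose by 0.82 (adjusted p = 0.0366).

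**Figure D4:**
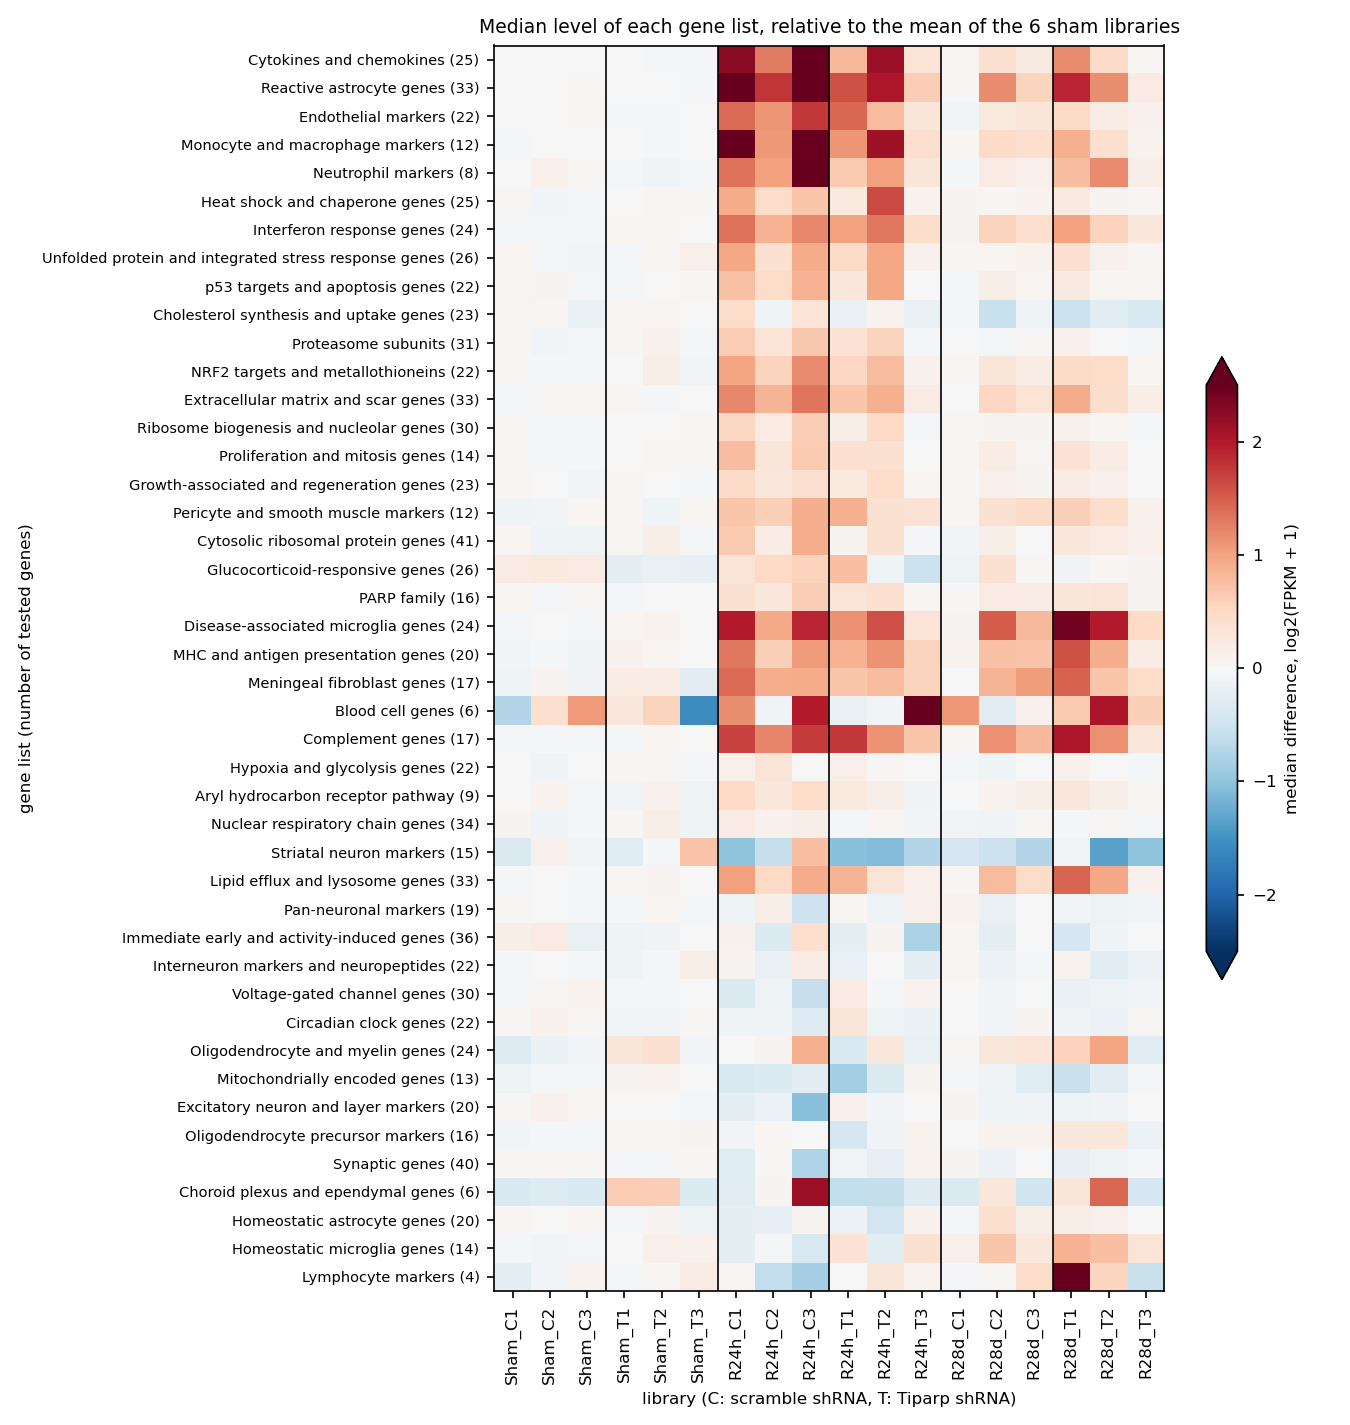
Rows are the 44 gene lists with the number of tested genes, ordered by their median difference of 28 d minus 24 h, and columns are the 18 libraries. Colour is the median over the list's genes of log2(FPKM + 1) minus the mean of the 6 sham libraries, and the scale ends at 2.5 in either direction. The upper lists are high in the 24 h libraries other than R24h_T3, and some of them are high in single 28 d libraries too. The reactive astrocyte list is at 1.60 to 2.66 in those 24 h libraries and runs from 0.03 in R28d_C1 to 1.91 in R28d_T1. The disease-associated microglia, complement and MHC lists are also high in some libraries of both times.

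By the Gene Ontology terms deposited with the genes, 1.66% of the 12688 tested genes with any term were lower and 1.34% were higher. Among the 64 terms examined, the share lower was 10.5% for cytokine activity (10 of 95), 10.3% for angiogenesis (18 of 174), 9.62% for response to wounding (5 of 52) and 9.52% for neutrophil chemotaxis (4 of 42). It was 8.55% for immune response (10 of 117), 8.06% for the proteasome complex (5 of 62) and 5.65% for inflammatory response (10 of 177). Upward, circadian rhythm had 4 of 76 (5.26%), with 3 lower, and collagen fibril organization had 2 of 28 (7.14%). Chemical synaptic transmission had 0 of 104 in either direction, with 14 higher at an unadjusted p under 0.05, and structural constituent of ribosome had 0 of 164. Terms share genes, and these shares are descriptions without a test.

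Each arm gave its own estimate of the time difference, from libraries that the other arm does not share. In the control arm alone, 147 genes were higher (0.996%) and 582 lower (3.94%) with limma. In the Tiparp arm alone none passed in either direction, and 1194 had an unadjusted p under 0.05. Of the 147 higher genes of the control arm, 137 (93.2%) were higher in direction in the Tiparp arm, where 47.4% of all tested genes were, and 63 (42.9%) had an unadjusted p under 0.05 in that direction, against 5.04% of all genes. Of the 582 lower genes, 526 (90.4%) were lower in the Tiparp arm, against 52.6% of all genes, and 62 (10.7%) had an unadjusted p under 0.05, against 3.06%. In the Tiparp arm the median of the higher genes was 0.44 and that of the lower genes -0.33. The values of the control arm chose these genes, so their size there is not compared.

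The test of the difference between the arms' time effects gave no gene with limma in either direction, with 1425 genes (9.66%) at an unadjusted p under 0.05. With array weights it gave 228 genes higher and 44 lower. Calu and Lyve1 were picked by their small unadjusted p in the limma fit without weights (1.05e-04 and 3.06e-04). Neither came near the threshold, with an adjusted p of 0.506 each. The endoplasmic reticulum protein gene Calu was at 21.9 to 28.1 FPKM in R24h_C and 9.48 to 10.8 FPKM in R28d_C. In the Tiparp arm Calu was at 12.4 to 17.2 FPKM in R24h_T and 13.7 to 21.6 FPKM in R28d_T. Its difference was -1.27 in the control arm and 0.23 in the Tiparp arm. Lyve1, a marker of lymphatic vessels and perivascular macrophages, differed by -2.57 and -0.24.

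**Figure D5:**
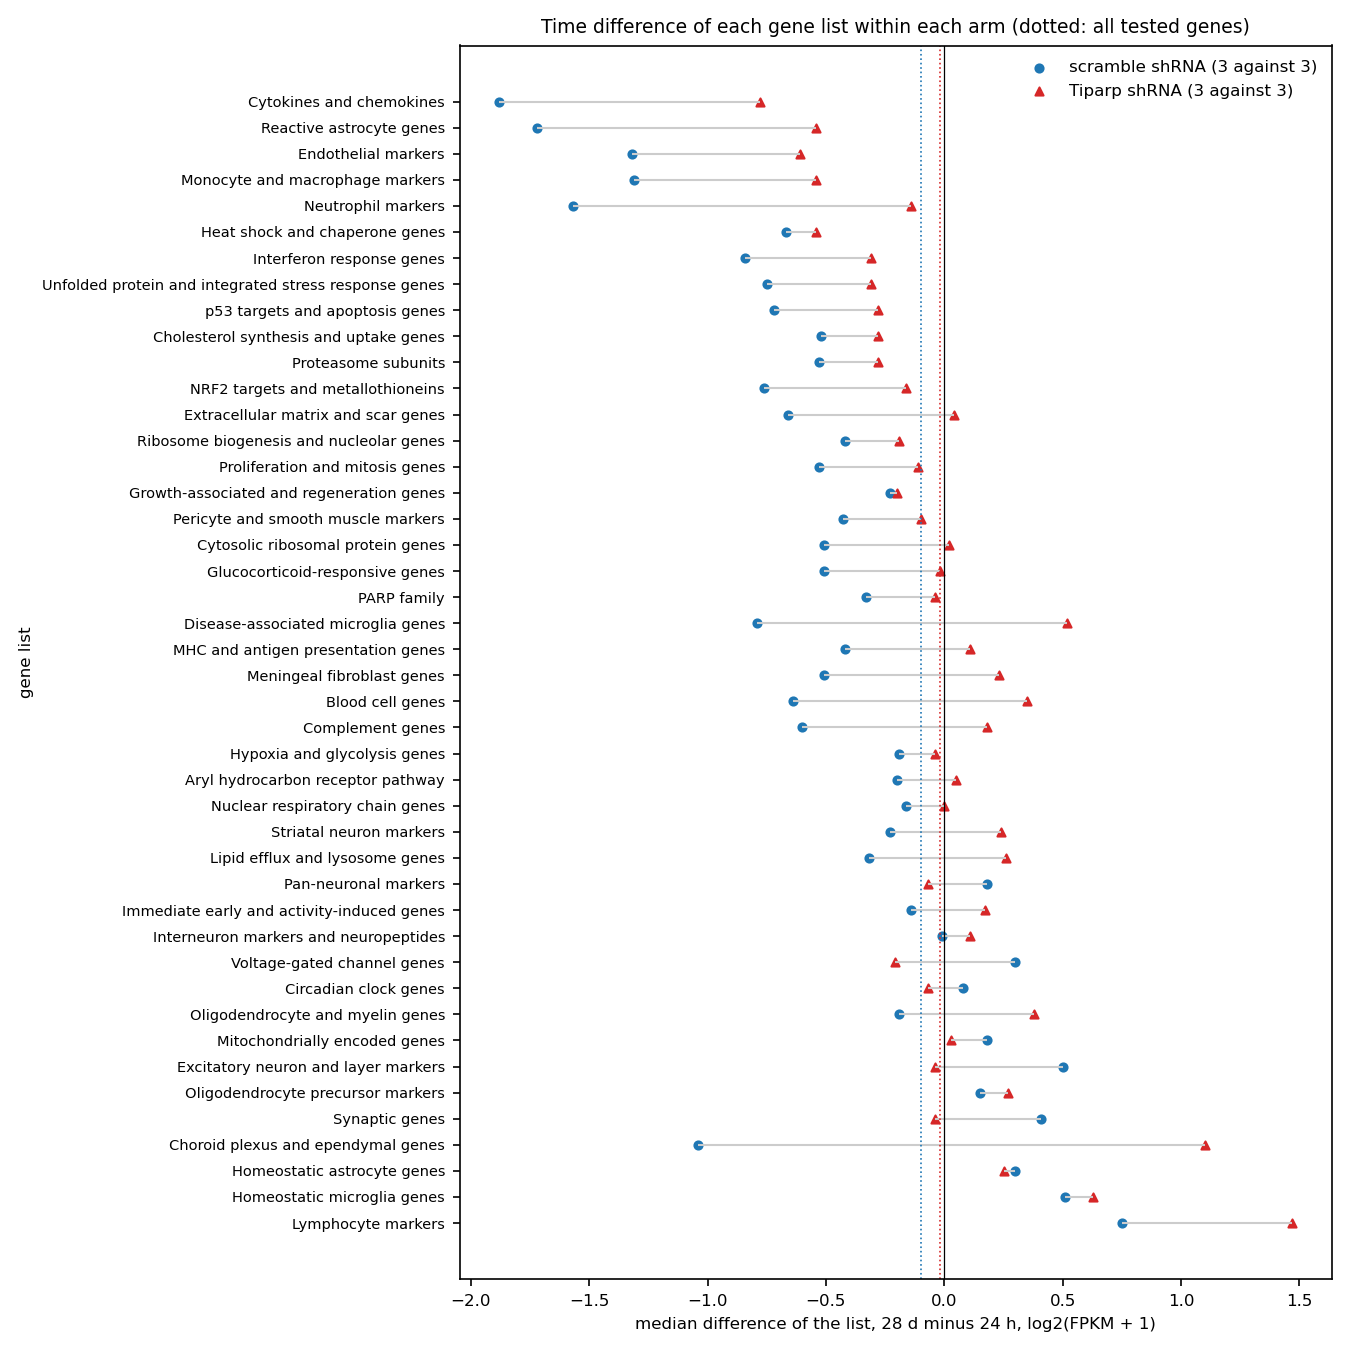
For each of the 44 gene lists, the horizontal axis gives the median difference of 28 d minus 24 h on the log2(FPKM + 1) scale within the control arm (circles) and within the Tiparp arm (triangles), 3 libraries against 3 each. Dotted lines mark the median of all tested genes, -0.10 and -0.02. The cytokine list is at -1.88 and -0.78, and the homeostatic microglia list at 0.51 and 0.63.

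Tiparp, the ADP-ribosyltransferase that the T virus targets, was at 5.32 ± 2.03 FPKM at 24 h and 3.93 ± 0.312 FPKM at 28 d (SD, n = 6 each), with 4.45 ± 0.424 FPKM in sham (n = 6). The difference was -0.30, with p = 0.12 in an exact two-sided permutation test within arms over 400 labellings, where the smallest possible p is 0.005. It was -0.60 in the control arm and -0.01 in the Tiparp arm. Without R24h_T3 it was -0.38, with an exact permutation p of 0.01. None of 16 PARP family genes and none of 9 tested aryl hydrocarbon receptor pathway genes passed. Parp3, a DNA damage-responsive member, was nearest in size, at 1.97 to 16.5 FPKM at 24 h and 1.16 to 5.69 FPKM at 28 d (-1.37, adjusted p = 0.0766).

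The gene with the smallest p, Ikbkg, the regulatory subunit of the kinase that activates NF-kappa-B, was picked after its value was seen. It was at 3.62 to 4.18 FPKM at 24 h, at 1.57 to 2.34 FPKM at 28 d and at 0.926 to 2.87 FPKM in sham. The 24 h libraries, R24h_T3 included, lay above all 28 d and all sham libraries. The difference was -0.70 (SE 0.08, adjusted p = 0.0121), with -0.63 in the control arm and -0.76 in the Tiparp arm. Its model overlaps G6pdx on the opposite strand, which was at 12.4 to 23.5 FPKM at 24 h and at 9.70 to 18.8 FPKM at 28 d (-0.46, adjusted p = 0.144).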

How the data were processed

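Values are FPKM per gene in 1 deposited table for 18 libraries, and 12 were compared here. Per the submitters' processing notes, the authors used HISAT, StringTie and edgeR with genome build mm9, and no versions are given in the sources used here. Per the labels' protocols, libraries were made from poly(A) RNA with strand marking. No read totals were used, so the FPKM values leave depth unknown, and shared steps of low values put the libraries at 0.880 to 1.02 times the depth of R24h_C1. The fit of log2(FPKM + 1) on time and arm used limma 3.58.1 under R 4.3.3, with a mean trend and moderated variances, two-sided, with Benjamini-Hochberg adjustment over all 14756 genes. The filter kept genes that reached 1 FPKM in 3 or more of the 12 libraries, so a gene near 0 at 1 time was tested only if high at the other. The arm difference was the interaction term. Single values were compared by exact permutation within arms. Tested on simulated data with 200 changed genes, the time fit found 92% of those changed by log2 1 and 98% of those changed by log2 2, and 3.55% of its calls were false. For the interaction these were 86%, 98% and 5.15%. The simulated noise was drawn separately for each gene and library, without shifts of many genes in 1 library. These shares therefore do not cover the dependence on single libraries seen in the data.

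The members, the 44 gene lists and the tests were chosen with earlier results of these data known. List symbols were matched for 1048 of 1053, and of repeated symbols the entry with the highest mean was used. Genes were named by a rule. It took the 15 largest differences each way among called genes without overlap of the times. From each list it took up to 4 called members by size, or else the 2 with the smallest p. The 5 called genes of highest mean each way were added. Tiparp and the 5 genes with the smallest p for the interaction complete the named genes. The text gives a part of them, some results are not reported here, and genes outside the rule are said to be picked after their values were seen, or complete a count. Gene models that overlap were found in an annotation of another build, without use of its coordinates. Beside those said in the text, Hmga1, Psmb7, Manf, P2ry12, Eng, Parp3, Padi2, Ccnd1, Selp and Shank1 overlap, on the opposite strand, a gene that reached 1 FPKM, and such values are uncertain. Promoters are from RefSeq. Python 3.11.15 was used for counts, promoters and figures. Alternatives were a pseudocount of 0.1, no filter, a filter in 6 libraries, a fit of all 18 libraries, scaling by median ratios, array weights, a block for the replicate number, each library left out, both libraries high in Ttr left out, and each arm alone. List medians of the control arm without R24h_C3 were added after seeing the data.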

Additional observations from a re-analysis of the deposited data

Results flagged for a closer look

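In 230 sets of 6 libraries (114 genes and the mitochondrial share, at each time), 12 had 1 library far from the other 5. That share is near the 1 in 20 that chance sets apart. R24h_T3 was that library in 7 of the 12. Among genes high at 24 h it was low: it held 5.95 FPKM of Cdkn1a against 50.8 to 122 FPKM, 2.66 FPKM of Gbp3 against 4.90 to 5.87 FPKM and 11.5 FPKM of Spp1 against 162 to 703 FPKM. Among genes low at 24 h it was high: 814 FPKM of Sparcl1 against 563 to 637 FPKM, 38.0 FPKM of Bcan against 22.6 to 26.9 FPKM, 28.2 FPKM of Shank3 against 14.0 to 17.7 FPKM and 1.16 FPKM of the fructose transporter gene Slc2a5. R28d_T1 was far above the other 28 d libraries for the immunoglobulin joining chain Jchain (39.7 FPKM against 0.220 to 1.21 FPKM), for Selp (0.208 FPKM) and for Stc1 (0.871 FPKM). R28d_C2 was high for Slc10a6 (0.365 FPKM), and R24h_C1 was high for Npy (198 FPKM against 121 to 144 FPKM).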

How the results depend on the processing

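The calls of the named genes were not stable. The 86 that passed were chosen by the fit of the same libraries, so their sign was largely fixed in advance. Over 22 alternatives, none of the 86 named genes that passed changed sign, while 2 of the others did: Calu was at 0.23 in the Tiparp arm alone, and Gfap was at 0.68 in the Tiparp arm alone and between -0.79 and 0.15 with 1 library left out. The cause of these changes was not tested. The counts of 217 higher and 222 lower genes became 17 and 3 without the filter, where more genes share the adjustment. They were 337 and 277 with median-ratio scaling, 796 and 1638 with array weights and 859 and 1683 with all 18 libraries in 1 fit. The control arm alone gave 147 and 582, the Tiparp arm alone 0 and 0, and the fit without R24h_C3 and R28d_T2, the libraries high in Ttr, 0 and 0. With 1 library left out they ran from 1 to 701 higher and from 1 to 1928 lower. A pseudocount of 0.1 gave 202 and 216, and the filter in 6 libraries 206 and 186. For the difference between arms the counts of 0 and 0 became 228 and 44 with array weights and 0 and 1 without the filter. With the replicate number as a block, 75 genes were higher and 41 lower. The numbers do not pair the libraries: of 6 pairs of the same number and arm 1 had deviations correlated over 0.1 (r from -0.28 to 0.21), and 1 of the 6 24 h libraries correlated best with its own number. The Tiparp difference stayed between -0.40 and -0.21 with 1 library left out, and it passed without R24h_T3 (-0.38, exact permutation p = 0.01). The mitochondrial share differed by 0.29 to 3.33 percentage points and never passed. Depth is unknown in FPKM, so genes near 1 FPKM carry an error that was not tested.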
